A study of Mus musculus with 80 samples.

Results

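RXR-DNA binding on control diet was compared between the livers of WT mice and of mice without hepatic PPARγ (KO), by ChIP-Seq peak lists of 5 livers per genotype. These were 10 of the 40 ChIP samples of the series, chosen by their labels. All mice were male, 5 months old and on a C57BL6/J background, and had eaten the low-fat control diet for 12 weeks without pioglitazone. KO mice carried a loxP-flanked Pparg gene and Cre driven by the albumin promoter, which is active in hepatocytes, so that other cells of the liver kept PPARγ. Per the labels, each sample was a separate liver, immunoprecipitated with an antibody that recognises RXRα, RXRβ and RXRγ, and each was set against its own input. Genotype, tissue and antibody are given here as labelled. At least 3 KO livers had an exonic interval in 22.0% of protein-coding genes. The counts were 26 of 30 neural, 23 of 24 oxidative phosphorylation and 0 of 22 hepatocyte enzyme genes. These lists were chosen with earlier results of these data known, so their counts are a description. Whether these libraries are what their labels state was not tested. The deletion could not be checked, since a peak list holds no reads over the deleted exons. The rest of the series added pioglitazone, a high-fat diet (HFD) or both (HFD-Pio). Intervals with a q of at most 0.05 on chromosomes 1 to 19, X and Y were kept in every liver, and those that overlapped were merged into 62737 sites. The same steps gave 151644 sites over the 40 libraries. A site counted as called in every liver that had an interval in it. All positions are on mm10 (GRCm38).

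RXR is the common partner of many nuclear receptors. It pairs with PPARα, PPARγ, LXR, FXR and the thyroid and retinoic acid receptors on DNA that carries repeats of the half-site AGGTCA, and the spacing between the half-sites differs among the partners, with a spacer of 1 base for PPARs. In liver these pairs are known for their control of fatty acid oxidation, bile acid and cholesterol handling and lipid storage, and their sites lie mostly in promoters, introns and intergenic enhancers. Exons of mature mRNA are not where such sites are usually found. In whole-liver chromatin, a site bound in fewer cells and a site bound less in each cell cannot be told apart.

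The sites that the results turn on read as follows in the reference (NCBI, GRCm38.p6, forward strand, 50 bases on either side of the summit), intergenic ones by their nearest protein-coding gene. The first 3 were called in livers of both genotypes, the next pair only in WT livers and the last 3 only in KO livers. Capitals mark runs of at least 2 units of GGAAT or its reverse complement ATTCC.
Intergenic, Arid1b side, chr17:4626372-4626472: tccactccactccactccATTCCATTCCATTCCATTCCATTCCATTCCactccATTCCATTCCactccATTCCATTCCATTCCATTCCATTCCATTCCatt
Intergenic, Sulf1 side, chr1:12644778-12644878: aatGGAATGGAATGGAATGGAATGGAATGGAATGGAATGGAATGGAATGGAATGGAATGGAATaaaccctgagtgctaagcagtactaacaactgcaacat
Intergenic, Trim52 side, chr14:107075313-107075413: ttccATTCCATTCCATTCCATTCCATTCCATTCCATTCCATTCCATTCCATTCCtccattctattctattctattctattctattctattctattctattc
Mad1l1 intron, chr5:140204146-140204246: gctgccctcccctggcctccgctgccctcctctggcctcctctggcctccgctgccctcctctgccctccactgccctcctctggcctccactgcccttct
Shmt1 intron, chr11:60795853-60795953: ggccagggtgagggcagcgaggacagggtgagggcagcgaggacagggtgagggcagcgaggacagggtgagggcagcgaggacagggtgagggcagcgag
Intergenic, Itga11 side, chr9:62608566-62608666: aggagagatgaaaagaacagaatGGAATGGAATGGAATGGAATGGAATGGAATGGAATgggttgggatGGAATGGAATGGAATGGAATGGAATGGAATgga
Tubb5 coding sequence, chr17:35835286-35835386: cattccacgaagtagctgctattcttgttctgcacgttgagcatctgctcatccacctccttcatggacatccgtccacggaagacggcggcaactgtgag
Tubb3 coding sequence, chr8:123420815-123420915: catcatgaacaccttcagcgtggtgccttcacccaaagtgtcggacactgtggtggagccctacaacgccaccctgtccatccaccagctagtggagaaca
The 3 intergenic windows of both genotypes held 14, 12 and 10 GGAAT or ATTCC units in 101 bases, and that on the Itga11 side 13. The Mad1l1 and Shmt1 windows of WT livers were tandem repeats of other units, in which 88.9% and 98.8% of the bases matched those 20 bases further on. The Tubb5 and Tubb3 windows of KO livers were coding sequence over their whole 101 bases. None of the windows printed here held the half-site AGGTCA on either strand, whereas that at Acacb, a site of both genotypes described below, held 1.

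The numbers of intervals differed between livers of the same genotype as well as between genotypes. WT livers 1 to 5 had 318, 11476, 229, 3737 and 170 intervals. KO livers 1 to 5 had 14728, 23508, 24383, 7630 and 22065. WT livers 2 and 4 stood far above the other WT livers, and WT 2 overlapped the KO range. On the log2 scale the mean of WT livers was below that of KO livers by a difference of -4.27 (exact two-sided permutation p = 0.0159, adjusted p = 0.0238 over the 3 numbers compared). Omission of KO liver 1, 2, 3 or 5 raised the adjusted p to 0.0595.

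**Figure D1:**
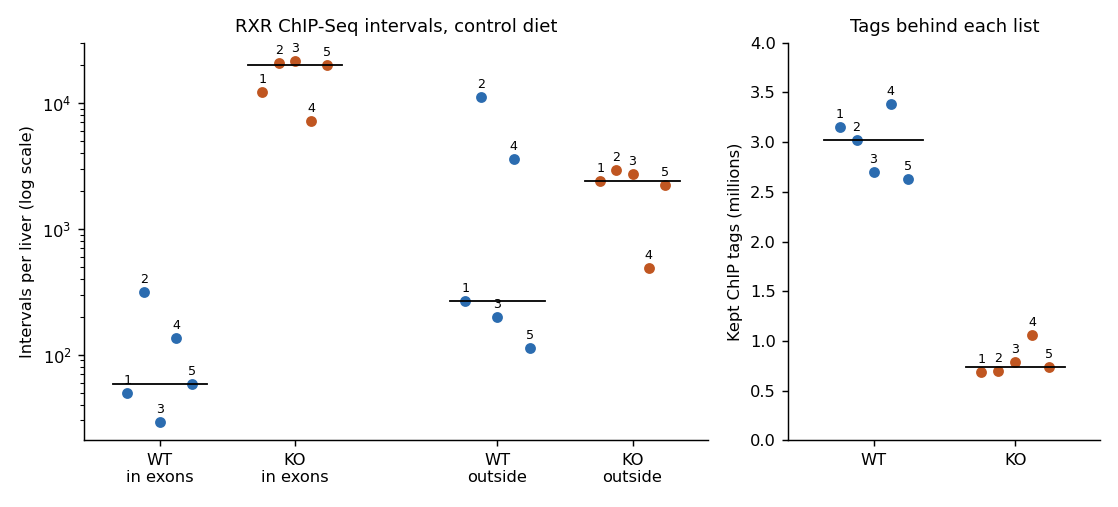
Left, intervals per liver on a log axis, in and outside annotated exons; right, ChIP tags kept by the peak caller (M, mega). Each point is a liver with its replicate number and each line is a median of 5. The exonic numbers of the genotypes do not overlap, whereas outside exons WT livers 2 and 4 lie above every KO liver, and the WT livers have 2.63 to 3.39 M and the KO livers 0.688 to 1.06 M tags.

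Almost all of this difference was in exons. Intervals that touched an annotated exon numbered 50, 315, 29, 136 and 58 in WT livers 1 to 5, and 12311, 20598, 21641, 7145 and 19854 in KO livers 1 to 5, so that the groups did not overlap. The geometric mean was 185-fold higher in KO livers (log2 difference, WT minus KO, of -7.53; exact permutation p = 0.00794, the smallest the design allows, and adjusted p = 0.0238). Outside exons the WT livers had 268, 11161, 200, 3601 and 112 intervals and the KO livers 2417, 2910, 2742, 485 and 2211. Here WT livers 2 and 4 lay above every KO liver and the other 3 WT livers below every one. The log2 difference of -1.28 lay within the spread of the livers (exact permutation adjusted p = 0.389). Its direction rested on the processing: it was 0.76 (adjusted p = 0.397) with the lists as deposited, 2.44 (adjusted p = 0.00794) with the 170 strongest intervals of each list, and -2.11 (adjusted p = 0.0476) at a −log10 q of at least 5, all by exact permutation.

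Tag numbers moved with genotype. The peak caller kept 2.98 ± 0.316 M (mega) ChIP tags in WT and 0.793 ± 0.153 M in KO livers (SD, n = 5; exact permutation p = 0.00794, adjusted p = 0.0179 over 9 library measures), whereas 4.23 to 5.73 M and 4.48 to 7.19 M input tags were kept. The fragment length estimated by the caller was 233 ± 46.7 bp in WT and 159 ± 5.64 bp in KO livers (SD, n = 5; exact permutation adjusted p = 0.0179). Peaks were called at a p of 0.001 in the WT files and at a q of 0.05 in the KO files, and the common threshold removed 718 to 3346 intervals from each WT list and 0 from each KO list. Genotype, depth, fragment length and calling rule changed together between these groups, and their parts in any difference cannot be told apart. The longer KO lists came from the libraries with fewer tags.

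Exonic intervals made up 15.7, 2.74, 12.7, 3.64 and 34.1% of the WT lists and 83.6, 87.6, 88.8, 93.6 and 89.98% of the KO lists. The means were 13.8 ± 12.7% and 88.7 ± 3.65% (SD, n = 5), and every KO liver was above every WT liver (difference of -74.9 percentage points, WT minus KO; exact permutation p = 0.00794). The strongest summit lay in coding sequence in 0.261 to 15.3% of WT and 39.2 to 46.4% of KO intervals per liver. Summits in untranslated regions were 0 to 5.88% in WT and 38.0 to 43.5% in KO livers. Of the 9761 sites called in at least 3 KO livers, 52.4% had their summit in coding sequence and 41.0% in a UTR, where these features cover 1.33% and 1.65% of the genome. Exons of pseudogenes held 4.55% of these summits and cover 0.374% of the genome. Reads from a gene and a near-identical processed copy can be placed at either, so the pseudogene sites are uncertain as to their gene.

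The summits followed exon edges closely in KO livers. Of 9070 sites called in at least 3 KO and 0 WT livers that lay within protein-coding genes, 92.8% had their summit inside an exon, 3.44% within 100 bp outside one and 3.73% deeper in an intron. The KO sites called in a single liver were inside exons in 71.3% of 26357 cases. WT sites called in a single liver lay inside exons in 2.49% of 5858 cases and more than 100 bp from one in 96.1%, at a median of 4164 bp for those outside. The recurrent KO sites in introns lay at a median of 173.5 bp from the nearest exon edge.

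**Figure D2:**
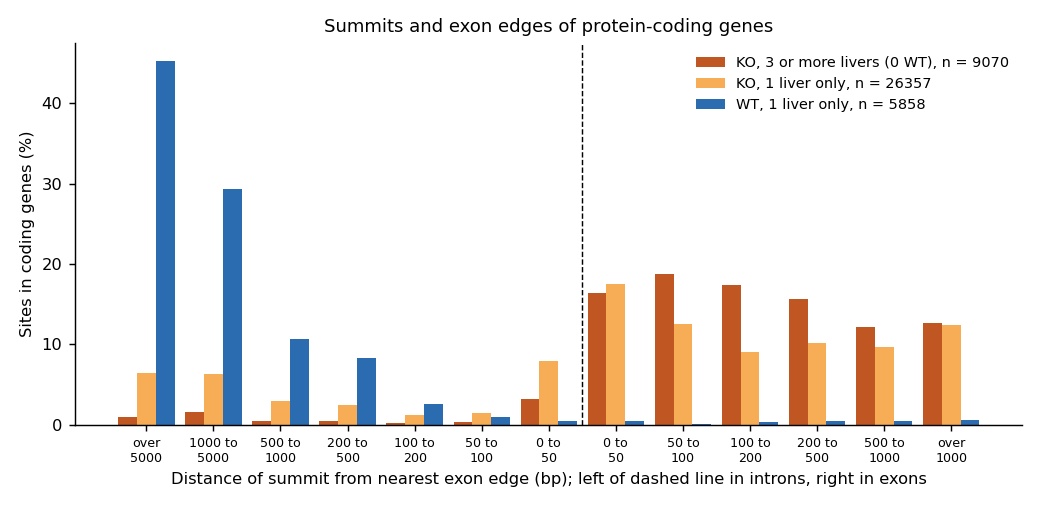
Distance of the summit from the nearest exon edge, in bp classes, for sites within protein-coding genes; bars are the percentage of the sites of each set. Sites of 3 or more KO livers fall to the right of the dashed line (in exons) in 92.8% of cases, and sites of a single WT liver more than 100 bp to the left of it (in introns) in 96.1%.

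Sites were next compared by the number of livers in which they were called. Of the 62737 sites, 71.4% were called in 1 library, 15229 in WT livers only, 47374 in KO livers only and 134 (0.214%) in both genotypes. At least 3 KO and 0 WT livers had 9676 sites (15.4% of all sites), of which 9300 were in exons and 376 outside. At least 3 WT and 0 KO livers had 20 sites (0.0319% of all), of which 3 were in exons and 17 outside. With the 170 strongest intervals of each liver the order outside exons was reversed. There, 6 sites were in at least 3 KO and 0 WT livers and 13 in at least 3 WT and 0 KO, whereas in exons it was 112 and 4. Exonic intervals filled most of the KO lists so cut, which left few outside exons, so this reversal is not separate from the exonic share. In exons, 2784 sites were called in 5 KO and 0 WT livers against 1 in the opposite case, and outside exons 115 against 1. The WT lists were mostly particular to a liver: 14509 sites outside exons were called in 1 WT liver and no other library, and between pairs of WT livers a median of 16.8% of the shorter list was found in the other, against 50.3% between KO livers. Outside exons these medians were 14.9% and 16.3%.

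Fisher's exact test compared the genotypes at 5706 sites, those with calls in at least 4 of the 10. It gave 5643 sites (98.9% of those tested) called in more KO livers and 7 (0.123%) called in more WT livers at an adjusted p below 0.05. The minimum of 4 livers was reached by 2715 sites in 4 KO and 0 WT livers and by 2899 in 5 and 0, splits that pass this test, so these shares follow from the minimum and are given as a description. A site in 5 KO and 0 WT livers had an exact p of 0.00794 (adjusted p = 0.0156) and one in 4 and 0 had 0.0476 (adjusted p = 0.0481), so the call of the latter was close to the threshold. With all 62737 sites in the adjustment 0 passed by the same test, whereas 5650 had an unadjusted p below 0.05 among those tested. Omission of KO liver 1, 2, 3 or 5, which leaves a smaller test, took the exonic sites called in more KO livers from 5419 to 3544, 2972, 2942 or 3022.

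**Figure D3:**
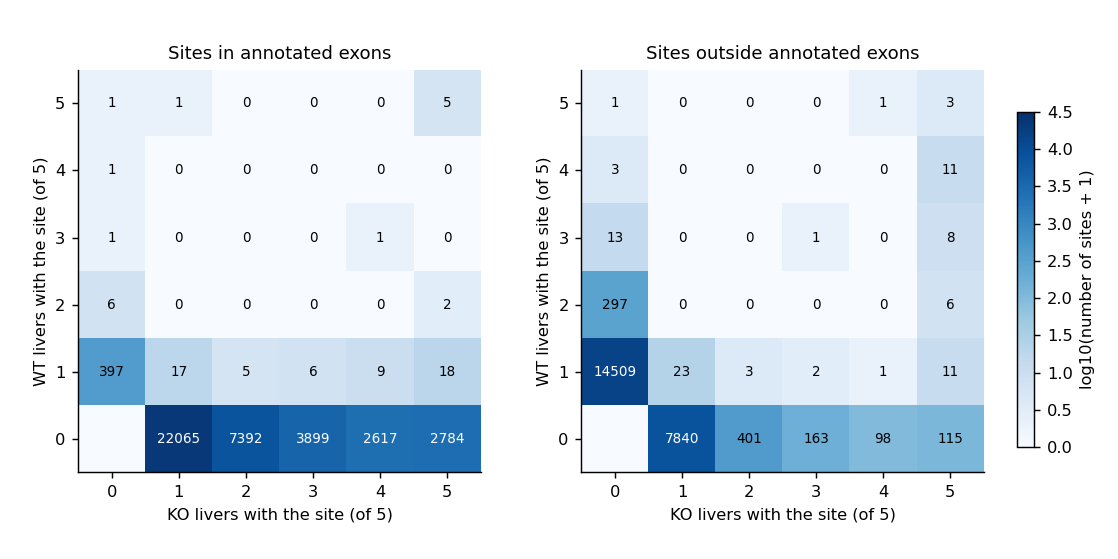
Number of sites by the number of WT livers (vertical) and KO livers (horizontal) in which they were called, in exons (left) and outside (right); colour is log10 of the number plus 1. Exonic sites spread along the bottom row up to 2784 in 5 KO and 0 WT livers, whereas outside exons the largest cell is 14509 sites of 1 WT liver.

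Of the 8 leading exonic sites of KO livers, 5 lay in actin or tubulin genes. The site at Actb, cytoplasmic β-actin (chr5:142903097-142904906, summit in coding sequence), had fold enrichments over input of 31.1, 53.9, 56.7, 51.8 and 64.7 in KO livers 1 to 5 and no interval in any WT liver. Tubb5, a β-tubulin (chr17:35834744-35836416, coding sequence), had 42.8, 52.8, 59.7, 41.8 and 50.2. Both were thus called in all 5 KO livers, and KO liver 1 was lowest at Actb. Tubb2b (chr13:34130073-34130384, UTR), Tubb3 (chr8:123420495-123421997, coding sequence) and Tuba1a (chr15:98949787-98950192, UTR), a set of tubulins known to be abundant in neurons, had means of 45.8 ± 13.6, 45.7 ± 8.87 and 45.5 ± 11.1 (SD, n = 5). Tubulin and actin genes have close paralogs, and which copy a tag came from is uncertain. The other 3 of the leading 8 were Nnat, neuronatin, which Blcap overlaps (43.5 ± 2.92), Ptms, parathymosin (42.3 ± 7.68), and Basp1, a growth-cone protein (41.1 ± 13.6). All 8 were called in 5 KO and 0 WT livers, a split that follows from their choice by number of livers called.

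Over genes, an exonic interval was present in at least 3 KO livers for 4814 of 21911 protein-coding genes (22.0%) and in at least 3 WT livers for 13 (0.0593%). Of 3590 genes with an exonic interval in at least 4 of 10 livers, 3537 (98.5%) had one in more KO livers and 7 in more WT livers (Fisher's exact test, adjusted p below 0.05). Here too the minimum fixed the share, since 1403 of these genes had calls in 4 KO and 0 WT livers and 2088 in 5 and 0. With all genes in the adjustment 2088 passed, and without KO liver 1, 2, 3 or 5 the test gave 2351, 2161, 2158 or 2184. At least 5 exonic intervals in 3 or more KO livers were found in 1019 genes. The largest sums were in long multi-exon genes. Dync1h1, the dynein heavy chain, had 33, 47, 43, 32 and 40 exonic intervals in KO livers 1 to 5, which touched 38 to 59 of its 76 exons (those of all transcripts merged), and 0 in each WT liver. Sptan1, αII-spectrin, had 28 to 42 per KO liver over 29 to 44 of 52 exons, and Kif1a, an axonal kinesin, 22 to 32 over 21 to 34 of 53. Grin2b, an NMDA receptor subunit, had 10 to 39, with the lowest number in KO liver 4. The other 8 of the 12 genes with most exonic intervals were Huwe1, Macf1, Prrc2b, Chd3, Ank2, Sptbn1, Ank3 and Ptprs, with sums over the KO livers of 115 to 133. Macf1 and Ank3 had 1 exonic interval in 1 WT liver and the other 10 had none. These sums grow with the number of exons and are not levels of binding.

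Genes were then read by list. The lists are described by their counts beside the 22.0% of all genes, and the marker lists of tissues were written with leading KO genes of these data known. Of 30 neural genes, 26 had an exonic interval in at least 3 KO livers and 19 in all 5 (9.78% of all genes). Ncam1, a neural adhesion molecule, had 21, 20, 18, 16 and 19 exonic intervals in KO livers 1 to 5, Gria2, a glutamate receptor subunit, 15, 22, 20, 15 and 20, and Map2, a dendritic microtubule protein, 20, 17, 17, 15 and 19, with 0 in every WT liver for each. Kif5a, a motor of axonal transport, had 9, 12, 17, 6 and 10. KO liver 4, with the shortest KO list, was lowest at each of these but Gria2, where it shared the lowest value with KO liver 1. The neural genes with none in any KO liver were Nefh, Mbp and Gfap, so that these markers of neurofilaments, myelin and astrocytes were at 0. The summed number of exonic intervals over the list was 112 to 178 per KO liver and 0 in each WT liver.

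The labelled tissue was liver, and the genes that define hepatocytes had almost no exonic intervals. None of 22 hepatocyte enzyme genes, among them Cps1, Arg1 and Asl of the urea cycle, Adh1 of alcohol oxidation, Pck1 and G6pc of gluconeogenesis and Tat of tyrosine breakdown, had an exonic interval in any of the 5 KO livers, although G6pc had one outside exons in 3. Of 24 genes for secreted liver proteins, 3 had one in at least 3 KO livers, namely Ttr, transthyretin (3, 4, 5, 3 and 4 intervals), Apoe (1, 3, 3, 3 and 2) and Vtn, vitronectin (1, 1, 0, 0 and 1). Alb, albumin, had 0 in every KO liver, and so did Apoa1, Apob, Fga, Fgb and Trf. Ttr and Apoe are made in the brain as well as in the liver, and whether this bears on their intervals was not tested. An interval is a local excess of tags over input and not a measure of RNA or of cell number, and where the exonic tags of the KO libraries came from was not tested.

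WT liver 5 differed from the other WT livers in this respect. It had 10 exonic intervals in Alb, 4 in Trf, transferrin, 2 in Apoe and 2 in Scd1, a lipogenic desaturase that KO livers 2 and 3 had too (1 and 2), and 1 each in Ttr, Ahsg, Serpina1a, Serpina1c, Serpina1d and Cyp2e1. WT livers 1 to 4 had 0 in each of Alb, Trf, Apoe and Ttr. The genes of this liver were chosen after their values were seen. Its list was the shortest of the 10, at 170 intervals, and 15.3% of its summits were in coding sequence, against 0.261 to 6.60% in the other WT livers. The other exonic calls that recurred in WT livers lay in predicted genes. Of the 13 genes with an exonic interval in at least 3 WT livers, 12 were Gm genes on chromosomes 2, 9 and 14, and the other was Btk, a B-cell tyrosine kinase, in 3 livers. The copies of the Gm genes are near-identical, so their calls are uncertain as to the copy.

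Genes of general metabolism and protein synthesis also had exonic intervals in KO livers. In oxidative phosphorylation 23 of 24 genes had one in at least 3 KO livers, and Cycs, cytochrome c, was the exception at 0. Atp5a1 and Atp5b, subunits of ATP synthase, had 8 to 9 and 6 to 8 per KO liver, Cox4i1 of cytochrome c oxidase 3 to 5 and Sdha of succinate dehydrogenase 1 to 6. Of 23 translation factors 21 had one in at least 3 KO livers, with 6 to 15 in Eif4g1, 11 to 13 in Eif4g2, 7 to 14 in Eif3a and 9 to 11 in Pabpc1, the poly(A)-binding protein. Smooth muscle genes had 6 of 14, among them Flna, filamin A, with 17 to 26 per KO liver, Tpm1, a tropomyosin, with 4 to 10, Acta2, smooth muscle actin, with 1 to 4, and Tagln, transgelin, with 1 to 3, whereas Myh11, Cnn1 and Des, which define smooth muscle, were found in 1, 1 and 0 KO livers. Of 12 skeletal muscle genes, 1 (Acta1) had an interval in at least 3. The lists of intestine, kidney, lung, lymphoid tissue, testis, pancreas and adipose tissue had 0 of 18, 10, 10, 10, 9, 8 and 8. WT livers had 0 genes of any of these lists in 3 or more livers.

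**Figure D4:**
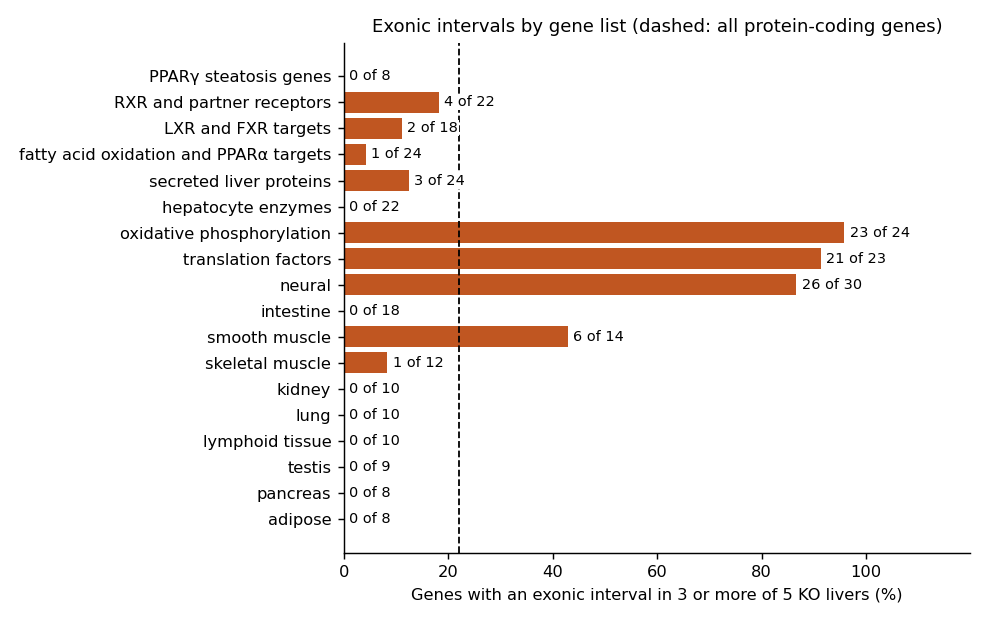
Percentage of the genes of each list that had an exonic interval in at least 3 of 5 KO livers, with counts; the dashed line is the 22.0% of all protein-coding genes. Oxidative phosphorylation, translation factors and neural genes lie at 86.7 to 95.8%, and hepatocyte enzymes, PPARγ steatosis genes and 7 tissue lists at 0.

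Genes through which RXR and its partners act in liver were read by the same exonic count. Known sites of these receptors lie mostly outside exons. Of the 8 PPARγ steatosis genes (Pparg, Cd36, Cidec, Mogat1, Fabp4, Plin4, Cfd and Cav1, which serve fatty acid uptake, triglyceride synthesis and lipid droplets), 0 had an exonic interval in at least 3 livers of either genotype, and Cav1 had 1 in each of KO livers 4 and 5. Intervals outside exons, within the gene or 5 kb upstream, were present at Pparg in 2 WT and 0 KO livers and at Plin4 in 1 and 0, and at the other 6 in none. No share of all genes was computed for such intervals, so these calls have no background to be read against. Of 22 hepatocyte enzyme genes, 6 had such an interval in at least 1 WT liver. A gene called in fewer than 4 of the 10 livers was below the minimum for the test. Among 24 genes of fatty acid oxidation and PPARα targets, Acsl1 and Hadha had exonic intervals in 2 KO livers each and Acadvl in 1, and Cpt1a, Pdk4, Angptl4 and Fabp1 had no exonic interval in any liver.

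Among 22 genes of RXR and its partner receptors, 4 had an exonic interval in at least 3 KO livers (18.2%, against the 22.0% of all genes). Thra, a thyroid hormone receptor, had 10, 12, 10, 9 and 10 exonic intervals in KO livers 1 to 5. Nr2f1 and Nr2f2, the COUP-TF receptors, had 3 to 5 and 2 in each KO liver, and Rxrb had 1 in KO livers 1, 2 and 5. Thra, Nr2f1 and Nr2f2 had none in WT livers, a split of 5 against 0 that was found in 2088 genes. These 3 were named for this difference. Rxra, Rxrg, Ppara, Nr1h3 (LXRα), Nr1h4 (FXR) and Hnf4a had no exonic interval in any of the 10. Of 18 LXR and FXR targets, 2 had an exonic interval in at least 3 KO livers (11.1%, against the 22.0% of all genes). Abca1, a cholesterol exporter, had exonic intervals in 4 KO livers and Apoe in 5 KO and 1 WT livers. Lpcat3 and Srebf1, a phospholipid-remodelling enzyme and the lipogenic regulator, had them in 2 KO livers each. Abcg5, Abcg8, Cyp7a1, Abcb11 and Nr0b2 had them in none. Outside exons, Thra had intervals in 5 KO and 0 WT livers and Rarb, a retinoic acid receptor, in 4 and 1, again without a share of all genes beside them.

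The KO sites outside exons numbered 376 at the threshold of at least 3 KO and 0 WT livers. The leading site (chr9:62608457-62608795) lay 69.2 kb from Itga11 and had fold enrichments of 25.5, 16.98, 13.1, 26.5 and 7.52 in KO livers 1 to 5. The next, in an intron of Kcnq1, a potassium channel gene (chr7:143368273-143368587), had 20.8, 22.6, 15.02, 16.6 and 11.3. Both were called in all 5 KO livers and were lowest in KO liver 5. The others of the leading 8 lay in introns of Vwf (7.87 to 20.9), Copg2 (9.63 to 16.6) and Rin2 (5.67 to 18.3) and, between genes, on chromosomes 4, 6 and 18 (means of 12.6 to 15.5). The word GGCTGAGGC was found within 100 bp of the summit in 57 of the 376 (15.2%) and in 0.692% of all sites. A run of 3 GGAAT units was found in 7 (1.86%) and in 0.0542% of all sites.

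Most recurrent WT sites lay in repeats, as did the WT sites of a single liver. Of the 17 called in at least 3 WT and 0 KO livers outside exons, 13 had more than 50% of the 201 bases around the summit in sequence that the reference marks as repeated. The share was 76.2% of the 14509 sites outside exons of 1 WT and 0 KO livers and 21.3% of all sites. All sites include the 9300 exonic KO sites, at 1.19%. Outside exons the share was 33.5% of the 376 KO sites and 12.8% of the 7840 sites of 1 KO and 0 WT livers. More than 90% of the window was of 1 base class (purines or pyrimidines) in 5 of the 17, in 16.05% of the sites of a single WT liver and in 3.95% of all sites. In the other 4 of the 17, at Shmt1, Agmat, Mvb12b and on chromosome 17, 0 to 33.3% of the window was marked as repeated, although the Shmt1 and Agmat windows were tandem repeats. The strongest was in an intron of Mad1l1, a mitotic checkpoint gene (chr5:140203978-140204419), with fold enrichments of 16.1, 20.1, 7.32 and 15.2 in WT livers 1 to 4 and no call in WT liver 5. It is the pyrimidine-rich window printed above. A site in an intron of Shmt1, an enzyme of folate metabolism (chr11:60795716-60796142), had 17.6, 8.95 and 6.55 in WT livers 1, 2 and 4. A site 12.2 kb from Mvb12b (chr2:33899920-33900224) had 8.39, 9.64 and 9.45 in the same 3 livers, and 3 others, in an intron of C130026I21Rik and on chromosome Y, had means of 3.46 to 7.95. The one called in 5 WT livers (chr9:3009201-3011259) was weak, at 1.59 to 2.102, and lay in a stretch of repeated predicted genes on chromosome 9 of which other parts were called in all 10 livers. The exonic WT sites were of the same kind or strength: 1 in that stretch (1.58 to 1.86), 1 at Fcnaos next to Fcna (4.23 to 14.2 in 4 livers) and 1 at Btk (5.62 to 7.56 in 3 livers). Without WT liver 2, 3 or 4 the 17 sites became 5, 9 or 6, and without WT liver 1 they became 10.

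Repeats also carried the sites of both genotypes. At least 3 livers of each genotype called 24 sites outside exons and 6 in exons. A run of 3 GGAAT units, on either strand, lay within 100 bp of the summit in 17 of the 24 (70.8%), and the word GGCTGAGGC in 4 others (16.7%), against 0.0542% and 0.692% of all sites. Both words were searched after such sequences had been seen at the leading sites. In the whole genome, GGAAT runs of at least 3 units formed 101 loci when runs up to 500 bp apart were joined. Of the 13 loci with at least 10 units, 13 were called in at least 3 KO livers and 12 in at least 3 WT livers. Of the 88 shorter loci, 19 and 6 were. The longest, with 65 units, had the highest mean fold enrichment of all sites called in at least 3 livers, in either genotype (chr17:4625941-4626823, between genes and 368 kb from Arid1b).

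That site had fold enrichments of 29.7, 6.63, 23.0, 16.7 and 42.5 in WT livers 1 to 5 and of 104, 92.9, 55.8, 91.9 and 53.3 in KO livers. Every KO liver was above every WT liver. The array on the Sulf1 side (chr1:12644530-12645090, 47.4 kb away) had 18.1, 5.22, 7.93, 5.82 and 11.3 in WT and 30.6, 28.9, 30.03, 34.0 and 16.5 in KO livers, in which KO liver 5 fell within the WT range. The array on the Trim52 side (chr14:107075057-107075619) had 3.73 to 14.9 in WT and 4.37 to 16.5 in KO livers, with WT liver 5 and KO liver 4 far above the rest. The site in an intron of Acacb, acetyl-CoA carboxylase 2 (chr5:114172870-114173408), had 11.6, 5.14, 4.66 and 5.63 in WT livers 1, 3, 4 and 5, and 40.6, 26.8, 28.0, 40.9 and 37.6 in KO livers. In an intron of Lipc, hepatic lipase (chr9:70805937-70806480), the values were 7.65, 6.46 and 5.67 in WT livers 1, 3 and 5, and 30.3, 22.7, 19.3, 28.6 and 19.2 in KO livers. Acacb and Lipc are genes of hepatic lipid metabolism, and the word GGCTGAGGC lay near the summit at both. The sites with the opposite order were in introns of Dpp9 (4.498 to 14.5 in 5 WT and 5.46 to 6.84 in 4 KO livers) and Myo7a (5.09 to 10.9 in 4 WT and 3.84 to 8.67 in 5 KO livers), where the genotypes overlapped.

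The shared sites in exons lay in predicted genes. Gm10800 (chr2:98666142-98667441) had 1.40 to 1.88 in WT and 5.698 to 6.60 in KO livers, and Gm10801 (chr2:98662126-98663040) 1.49 to 2.07 and 3.74 to 4.82. The genotypes did not overlap at either. The others lay in the stretch at the start of chromosome 9 and at Gm21738 on chromosome 14, with WT values under 2.18 and KO values of 2.35 to 5.02 in all but 1 shorter site within Gm10801.

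As measured, mean fold enrichment was higher in KO livers at 28 of the 30 sites, and 23 passed limma without centring (adjusted p below 0.05) and 0 were lower. With each liver centred on its own median over these sites, 9 were higher and 8 lower in KO livers by limma. The uncentred median difference was 1.31 on the log2 scale, and the centred values are relative to that shift. On the centred scale the 4 sites with the word GGCTGAGGC were all higher in KO livers, with log2 differences of 0.70 (SE 0.28) at Fam227b to 1.38 (SE 0.29) at Acacb (limma adjusted p of 0.0332 and 0.000352). The 17 GGAAT sites, which make up most of the 30 and so weigh on the median used for centring, gave 4 higher and 6 lower, and 10 higher and 0 lower without centring. The largest centred difference was at Dpp9, lower in KO livers by a log2 difference of -1.93 (SE 0.27; limma adjusted p = 6.9e-07), where the uncentred difference was -0.61 (limma adjusted p = 0.086). Fold enrichment was taken as deposited, with no further scaling here for depth, which differed 3.75-fold in kept tags. Livers in which a site was not called are missing from these values.

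**Figure D5:**
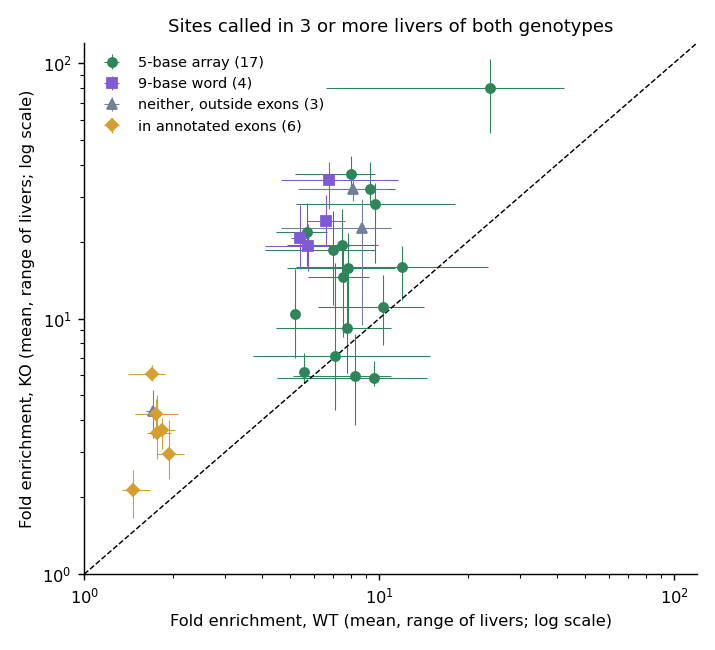
Fold enrichment over input at the 30 sites called in at least 3 livers of both genotypes, WT against KO, on log axes. Points are means over the livers with a call and bars run from the lowest to the highest liver; the dashed line marks equal values, and the 5-base array is GGAAT and the 9-base word GGCTGAGGC. All but 2 points lie above the line, and the sites in exons have WT means of 1.47 to 1.94.

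The half-site of nuclear receptors was searched by its exact letters. AGGTCA on either strand occurred within 100 bp of the summit in 10.9% of all sites, in 13.4% of the exonic KO sites, in 10.4% of the 376 KO sites outside exons, in 1 of the 17 WT sites and in 2 of the 24 shared ones, that in Acacb among them. The direct repeat of AGGTCA with a spacer of 1 base occurred in 28 of all sites (0.0446%), and direct repeats with any spacer of 0 to 5 bases occurred in 54 (0.0861%). Of these 54, 10 were among the 9300 exonic KO sites and 0 among the 376, 17 and 24 sites outside exons. Repeats with a mismatch were not searched.

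The same sites were looked up in the 30 livers of the other 6 groups. The labels of the 15 KO libraries among them do not state the antibody; only the titles give RXR. The 9300 exonic KO sites were called in at least 3 of 5 livers for 76.0% in KO HFD, 83.2% in KO Pio and 77.9% in KO HFD-Pio. In WT livers the shares were 0% in HFD, 11.1% in Pio and 5.13% in HFD-Pio, with 4 of the 9300 called in any WT HFD liver. The 17 WT sites were called in at least 3 livers for 8 in WT HFD, 5 in WT Pio and 5 in WT HFD-Pio, in 1 or more livers for 15, 13 and 12, and in no KO liver of these groups. The 24 shared sites were called in at least 3 livers for 22 in KO HFD, 22 in KO Pio, 20 in KO HFD-Pio and 22 in WT Pio, but in WT livers for 6 in HFD and 7 in HFD-Pio. By contrast, the 14509 sites of a single WT Control liver were called in 1 or more livers for 2.63% in WT HFD, 1.65% in WT Pio and 0.772% in WT HFD-Pio.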

How the data were processed

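Per the labels and file headers, reads were aligned to mm10 with Novoalign and the authors ran the peak caller MACS2 (2.1.1.20160309) on every ChIP library with the input of the same liver. Deposited values are the pileup (signal, in tags), −log10 p, −log10 q and the fold enrichment (a ratio over local input background) at each summit. Read counts and depth per site were not used here. The WT headers name no q cutoff, but their −log10 q column is filled, so that 1 threshold served both genotypes. Summits of an interval were joined, with the strongest kept. The second deposited peak format was not used. Intervals were placed on GENCODE M21 exons by an overlap of at least 1 bp, and coordinates lay within GRCm38.p6 chromosomes.

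Numbers and shares were compared with exact two-sided permutation tests, sites and genes with two-sided Fisher's exact tests and Benjamini-Hochberg adjustment, and fold enrichment with limma 3.58.1 (R 4.3.3). Exact tests used scipy 1.17.1, sequences were read with pysam 0.24.0, and tables and plots were made with pandas 2.3.3, matplotlib 3.10.9 and numpy 2.4.6 under Python 3.11.15. Scripts were tested on simulated data. Sites named were up to 8 per class by livers called, then mean fold enrichment, and the 3 strongest per genotype; genes were the 8 PPARγ genes, the 12 with most exonic KO intervals and up to 4 per list by difference in livers. Further list members are named where a count needed them. Members, lists and rules were chosen with earlier results of these data known. Same-numbered livers did not deviate together (0 of 5 pairs with a correlation over 0.1), so numbers were not taken as pairs. Alternatives were the deposited cutoffs, a stricter q, lists of equal length, exons by summit or of coding genes only, sites from summits, other test minimums and omission of each liver. Some genes and sequences are not reported here.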

Additional observations from a re-analysis of the deposited data

Results flagged for a closer look

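KO liver 4 stood apart from the other KO livers on 2 of 18 sets of 5 values examined. It had 485 intervals outside exons, where the next lowest KO liver had 2211, and the most ChIP tags kept, 1.06 M (mega) against 0.786 M in the next. In each case the gap was more than 0.71 of the range of the 5 livers. Chance gives such a gap in about 1 of 20 groups. Without KO liver 4 the log2 difference of interval numbers outside exons was -1.76 (exact permutation adjusted p = 0.238).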

How the results depend on the processing

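The 18 results were recomputed under 273 alternatives, of which 198 kept both the direction and the side of the threshold, or a count within 1.5 times. With the lists as deposited, the log2 difference of interval numbers outside exons turned to 0.76, 7 sites outside exons were called in more WT livers, and 48 were found in at least 3 WT and 0 KO livers. At a −log10 q of at least 5, that difference was -2.11 and passed the test (exact permutation adjusted p = 0.0476). At this q 1849 exonic and 102 outside sites and 1294 genes were called in more KO livers, 2917 exonic and 142 outside sites were found in at least 3 KO and 0 WT livers, 7 outside sites in at least 3 WT and 0 KO, and 9 in at least 3 of both. With the 170 strongest intervals of each liver the difference outside exons turned to 2.44, which follows from the exonic share in lists of fixed length. Under this setting 56 exonic and 3 outside sites and 42 genes were called in more KO livers and 1 outside site in more WT livers. The sites in at least 3 KO and 0 WT livers were then 112 in exons and 6 outside, those in at least 3 WT and 0 KO 4 and 13, and those of both genotypes 2 and 11. With exons assigned by the summit, the exonic sites of WT livers were 0 by either count, and outside exons 365 and 7 sites were called in more KO and more WT livers and 744 found in at least 3 KO and 0 WT livers. Sites built from summits gave 9 exonic sites in at least 3 WT and 0 KO livers and 2 in both. With all features tested, 0 sites passed in either class and direction and 2088 genes did. With a minimum of 5 of 10 livers, 2802 exonic and 126 outside sites were called in more KO livers and 1 outside site in more WT livers. With at least 2 exonic intervals required, 2042 and 2 genes were called. Without centring, 23 of the shared sites were higher in KO livers and 0 lower.

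With the replicate number as a block, the differences were -4.27 for all intervals, -7.53 in exons and -74.9 percentage points, each at the smallest exact p that 5 pairs allow (0.0625), and limma gave 5 shared sites higher and 5 lower. Same-numbered livers correlated at -0.0337 to 0.0767 and 2 of 5 WT livers correlated best with their own number, so this pairing is a number only.

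Omitting each liver in turn gave ranges of -5.20 to -3.68 for the log2 difference of all intervals, -8.02 to -7.16 in exons, -2.26 to -0.60 outside, and -80.0 to -72.2 percentage points. Sites called in more KO livers were 2942 to 5424 in exons and 133 to 229 outside, and in more WT livers 2 to 3 and 1 to 4. Sites in at least 3 KO and 0 WT livers were 6109 to 9320 in exons and 247 to 382 outside, in at least 3 WT and 0 KO 2 to 4 and 5 to 17, and in both 5 to 7 and 16 to 24. Genes called in more KO livers were 2158 to 3556, with 7 throughout in more WT livers, and shared sites 5 to 9 higher and 2 to 9 lower. Beside the counts given above, those more than 1.5 times below the values with all livers were as follows. Sites called in more KO livers outside exons were 141, 133 or 138 without KO liver 1, 2 or 3, sites in at least 3 KO and 0 WT livers were 6109 in exons without KO liver 3 and 247 outside without KO liver 2, and sites called in more WT livers outside exons were 2 without WT liver 1 and 1 without WT liver 2, 3 or 4. Of the shared sites, 5 were higher without KO liver 4, and 2 were lower without WT liver 3, 4 without WT liver 5 and 5 without WT liver 1, KO liver 1 or KO liver 4. Where settings changed a value, the cause was not tested. Peak lists hold no reads at sites without an interval, so a site not called may still be bound below the caller's limit.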
